A study of Homo sapiens with 15 samples.

Results

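Dynactin is the multi-subunit partner that cytoplasmic dynein, the minus-end-directed microtubule motor, needs for long-range transport of cargo and for its work at the spindle and the nuclear envelope. A short filament of actin-related protein 1 forms its core, a shoulder with a projecting arm carries the site that binds dynein and microtubules, and a pointed-end complex caps the filament and takes part in cargo contact. The 9 genes described here encode the filament proteins ACTR1A and ACTR1B, the shoulder and arm proteins DCTN1, DCTN2 and DCTN3, and the pointed-end proteins ACTR10, DCTN4, DCTN5 and DCTN6. Their members in the data were all introns whose gene name in the deposited tables is one of these symbols, which gave 106 introns of 111143 listed in any table. Of these, 94 were listed for all 4 clones, out of 83066 such introns in the series.

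The cells were HCT116, a human colon cancer line, with no treatment named in the labels. The 4 bktRNA1-deficient clones KO-1 to KO-4 were each set against wild-type cells (WT), with 3 libraries per group from independent experiments, and all 4 comparisons share the same WT libraries. Each deficient line was a single clone, so what belongs to the clone and what belongs to the deficiency cannot be told apart within 1 line, and the sources used here do not give how the clones were made. The level of bktRNA1 itself was not analysed here. Polyadenylated RNA was sequenced, and the tables give for each intron the reads that cross an exon-intron boundary (retained) and the reads that join its flanking exons (spliced).

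The libraries held 17287797 to 35348260 such junction reads, with 17287797 to 20454252 in KO-1, the shallowest group, and 28650487 to 34001726 in WT. Retained reads made up 12.25 to 13.65% of them. Of 7 colon epithelial markers 5 had spliced reads listed, among them EPCAM and the keratins KRT8, KRT18 and KRT19. Of 5 markers of other cells, COL1A1 alone was listed, at 135 to 278 scaled spliced reads against at least 60743 for KRT8. The colon marker CDX2, also listed, stood below COL1A1, at 73.9 to 117. VIM, COL1A2, PTPRC and PECAM1 were not listed. The epithelial markers CDH1 and VIL1 were not listed either, so a gene without a listed intron was not read as absent.

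A small class of human introns, called U12-type or minor-class, is removed by the minor spliceosome, which reads strongly conserved letters at the 5′ splice site and at the branch site. Intron ends were read from GENCODE transcripts that keep the intron, with coordinates on GRCh38 (hg38), for 17995 introns of the series and 26 of the dynactin introns. They were compared on the transcript strand with GTATCCTT or ATATCCTT at the 5′ start, allowing 1 mismatch, and with TCCTTAAC in the last 40 bases, allowing 2 mismatches. In the series 104 of the 17995 introns held both sets of letters (0.578%), and 3 of the 26 dynactin introns did. Dynactin introns outside these 26 were not compared. The 3 matching introns are shown because they are the nearest to the U12-type letters among the 26 read. The first 10 and the last 40 bases of each are given, with the matched letters in capitals.
ACTR10 intron 5, start: ATATCTTTtt
ACTR10 intron 5, end: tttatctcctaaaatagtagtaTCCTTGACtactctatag
DCTN3 intron 6, start: GTATCCTTtc
DCTN3 intron 6, end: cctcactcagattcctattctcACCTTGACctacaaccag
DCTN5 intron 5, start: GTAACCTTgg
DCTN5 intron 5, end: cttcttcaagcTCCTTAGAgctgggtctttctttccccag

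Positions in these letters are counted from 1 at the 5′ end of each set of 8, with the base of the searched letters first. ACTR10 intron 5 (chromosome 14, 58211400 to 58213630, plus strand, 2231 bases, between coding exons) had AT-AG ends, C6T at its start and A6G in the branch letters. DCTN3 intron 6 (chromosome 9, 34613872 to 34614041, minus strand, 170 bases) matched the start letters without a mismatch and had T1A and A6G in the branch letters. In both, the branch letters ended 10 bases before the intron end. DCTN5 intron 5 (chromosome 16, 23665729 to 23667046, plus strand) had T4A at its start and A7G and C8A in the branch letters, 21 bases from the end, so it had the loosest match of the 3. Such a match describes letters only.

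ACTR10, the actin-related protein of the pointed-end complex, had fewer spliced reads in all 4 clones than in WT. For each gene the spliced reads were summed over its introns listed for every clone and scaled between libraries by the median ratio over genes. ACTR10 had 1304, 1214 and 1291 scaled spliced reads in the KO-1 libraries, 1435, 1550 and 1388 for KO-2, 1358, 1349 and 1314 for KO-3, 1529, 1587 and 1463 for KO-4, and 1653, 1667 and 1767 for WT. Every library of every clone lay below every WT library, a pattern that 215 of the 9471 genes tested shared (2.27%).

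The KO-1 mean was 74.9% of the WT mean, a log2 change of -0.42 ± 0.06 (SE, adjusted p = 1.72e-05), where p-values are from limma with Benjamini-Hochberg adjustment over all 9471 genes. The KO-3 mean was 79.1% of the WT mean (log2 -0.34 ± 0.06, adjusted p = 0.000203) and the KO-2 mean 86.0% (log2 -0.22 ± 0.06, adjusted p = 0.0051). KO-4 stood nearest to WT, at 90.0% (log2 -0.15 ± 0.06, adjusted p = 0.0405). The KO-4 call ended when libraries were scaled by total spliced reads (adjusted p = 0.102) and without the KO-4 library listed 1st (0.081) or 3rd (0.148) or the WT library listed 2nd (0.0615) or 3rd (0.143), where the numbers in brackets are adjusted p-values. In bulk RNA, fewer cells that express the gene and less RNA per cell cannot be told apart. The 4 clones also differed from each other (limma F test, adjusted p = 0.00267), as did 75.6% of all genes.

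**Figure D1:**
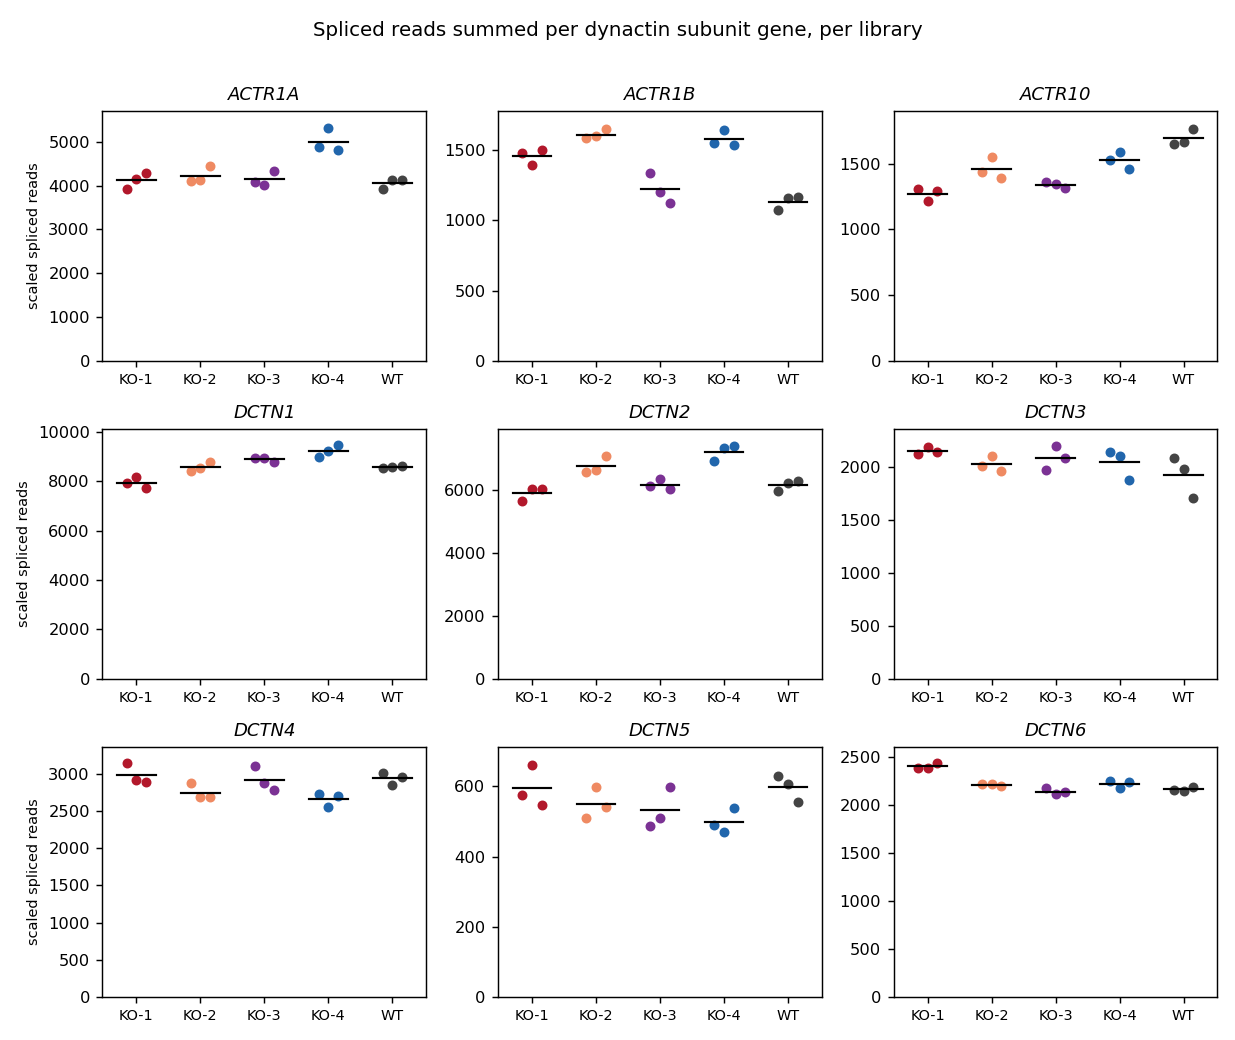
Scaled spliced reads (vertical axis, from 0) of each dynactin subunit gene in the 3 libraries of KO-1 to KO-4 and WT, with 1 point per library and a line at the mean. The ACTR10 points of all clones lie at 1587 or below, under the lowest WT point at 1653, while the ACTR1B points of KO-1, KO-2 and KO-4 lie above the highest WT point at 1167.

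The lower ACTR10 level was seen along the transcript from intron 4 to intron 12. Nothing before intron 4 was listed for every clone. Of the 9 ACTR10 introns listed for every clone, all 9 had a lower mean of scaled spliced reads in KO-1, KO-2 and KO-3 than in WT. In KO-4, 8 of 9 did. Across these junctions KO-1 held 62.5 to 86.9% of the WT mean, KO-2 71.0 to 94.8%, KO-3 70.7 to 84.8% and KO-4 76.2 to 101%. Intron 4, with 68.8, 71.0, 70.7 and 76.2% of the WT mean in the clones KO-1 to KO-4, was the lowest junction in KO-2, KO-3 and KO-4. At intron 5, the intron with AT-AG ends shown above, the values were 62.5, 82.2, 78.2 and 85.3%, and it was the lowest junction in KO-1. All libraries of the clone lay below all WT libraries at 7, 6, 9 and 3 of the 9 junctions in the clones KO-1 to KO-4. The share of all junctions in the series that did so was not counted. For whole genes, 18.3, 26.1, 20.7 and 28.5% lay wholly below WT in these clones. The ACTR10 junctions belong to the same gene and the same libraries, so they are not independent.

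**Figure D2:**
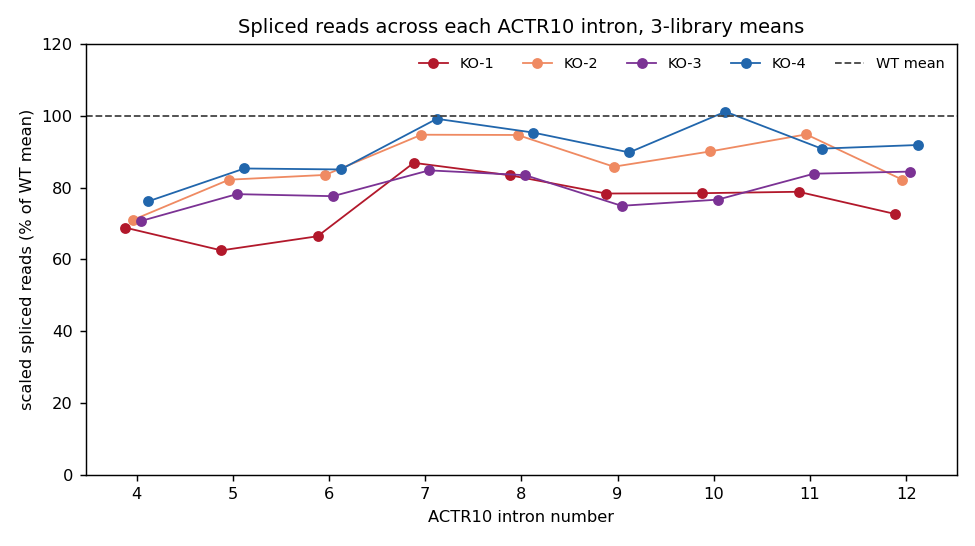
Mean scaled spliced reads of the 3 libraries of each clone across each ACTR10 intron (horizontal axis, intron number in the reference transcript), as a percent of the WT mean (dashed line at 100). All points of KO-1, KO-2 and KO-3 lie below the line, and intron 5 in KO-1 is the lowest at 62.5%.

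Reads kept in the introns of ACTR10 were few. Intron 5 had 25 retained and 235 spliced reads for KO-1, 31 and 514 for KO-2, 21 and 448 for KO-3, 29 and 534 for KO-4, and 25 and 607 for WT, each summed over 3 libraries. Its retention, the length-corrected share of unspliced molecules, was 5.01% ± 0.92 for KO-1, 3.01% ± 1.10 for KO-2, 2.27% ± 0.42 for KO-3, 2.64% ± 0.79 for KO-4 and 2.03% ± 0.61 for WT (SD, n = 3 each). The 3 KO-1 libraries, at 4.19, 6.01 and 4.83%, lay above the WT libraries at 1.82, 1.56 and 2.72%, while the other clones overlapped WT. No ACTR10 intron of the reference transcript reached a mean of 10 retained reads per library, the minimum for the test. The line from 58211393 to 58213640, described below, had enough retained reads but only 1, 1 and 0 spliced reads in KO-1, KO-4 and WT. So no ACTR10 intron was tested there.

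Without that minimum, 9 of the 9 ACTR10 introns of the reference transcript listed for KO-1 had a log2 odds ratio of retention above 0. None of them passed the threshold of 0.05, with a smallest adjusted p of 0.238 (intron 6). Above 0 with none passing were also 9 of 9 for KO-2 (smallest adjusted p 0.305), 8 of 9 for KO-3 (0.616) and 10 of 11 for KO-4 (0.412). The line from 58211393 to 58213640 was left out of these counts. Its retention was lower than in WT, at 99.3% for KO-1 and 99.6% for KO-4 against 100% for WT. Lines of that kind were kept in the shares of all introns. Called higher without the minimum were 0.351% of all introns for KO-1, 0.411% for KO-2, 0.173% for KO-3 and 0.451% for KO-4. Over all introns listed, 58.8% lay above 0 for KO-1, 54.9% for KO-2, 52.5% for KO-3 and 58.7% for KO-4. The intron 5 change was 1.37 ± 0.55 for KO-1 on the log2 odds scale (SE, adjusted p = 0.45), 0.54 ± 0.53 for KO-2 (0.712), 0.19 ± 0.58 for KO-3 (0.949) and 0.39 ± 0.53 for KO-4 (0.792).

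Among the other ACTR10 introns, intron 6 had the widest gap, with 2.89% ± 2.21 retention for KO-1, 2.14% ± 0.33 for KO-2, 1.07% ± 0.46 for KO-3, 1.71% ± 0.63 for KO-4 and 0.479% ± 0.256 for WT (SD, n = 3 each). It rested on 15, 24, 10 and 20 retained reads in the clones KO-1 to KO-4 and 6 in WT. Intron 10 had 2.95% ± 0.57 for KO-1, 1.83% ± 0.41 for KO-2, 2.40% ± 0.50 for KO-3, 1.30% ± 0.62 for KO-4 and 0.858% ± 0.749 for WT. Intron 9 had 3.89% ± 1.11 in KO-1 against 1.70% ± 0.69 in WT, and intron 8 had 2.77% ± 1.16 against 1.43% ± 0.74. Introns 4, 7, 11 and 12 averaged 1.53% or below in every group, and introns 1 and 3, listed for KO-4 alone, held 2 and 1 retained reads in KO-4 and 0 in WT. A further line, from 58211393 to 58213640, begins 7 bases before intron 5 and ends 10 bases after it. It held the most retained reads of any ACTR10 line, 238 in KO-1, 535 in KO-4 and 603 in WT, with 1, 1 and 0 spliced reads, and was not listed for KO-2 and KO-3. These counts stood close to the 235, 534 and 607 spliced reads of intron 5 in the same groups, so the line was not read as retention.

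Since single introns held so few retained reads, both kinds of read were then added up for each gene over its introns listed for every clone, keeping of overlapping introns the one with the most spliced reads, a test added after the data were seen. ACTR10 had 41, 42 and 38 retained reads against 918, 884 and 803 spliced reads in the KO-1 libraries, a retained share of 4.28, 4.54 and 4.52% of junction reads. The shares were 3.37, 2.89 and 2.76% for KO-2, 2.95, 2.13 and 2.68% for KO-3, 2.86, 3.25 and 1.92% for KO-4, and 1.26, 1.91 and 2.22% for WT. KO-1 and KO-2 lay wholly above WT, and KO-3 and KO-4 overlapped it. Such a pattern was not particular to ACTR10. DCTN2 and DCTN6 lay wholly above WT in KO-1, KO-2 and KO-4, DCTN3 in KO-2 and DCTN5 in KO-3. ACTR1A lay wholly below WT in KO-1 and KO-2. The share of all genes with such a pattern was not counted.

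The log2 odds ratio for ACTR10 was 1.33 ± 0.26 in KO-1 (SE, 95% interval 0.78 to 1.88, adjusted p = 0.0121, quasi-binomial model), and ACTR10 was the only dynactin gene of 9 past the threshold in that comparison, where 1.03% of 7953 genes were called higher and 0.101% lower. It was 0.74 ± 0.26 for KO-2 (adjusted p = 0.255), 0.52 ± 0.27 for KO-3 (0.729) and 0.59 ± 0.27 for KO-4 (0.306), and no dynactin gene was called in these clones. The background there was 0.749% higher and 0.193% lower for KO-2, 0.365% and 0.0487% for KO-3, and 1.37% and 0.253% for KO-4. Left without its intron 5, ACTR10 still passed in KO-1 (1.36, adjusted p = 0.0231). The call ended with limma on log2 odds (0.0898) and without the WT library listed 1st (0.0799) or any 1 of the KO-1 libraries listed 1st, 2nd or 3rd (0.108, 0.109 and 0.0822), all adjusted p-values. KO-1 libraries were also the shallowest, and the part of depth in the result was not tested.

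**Figure D3:**
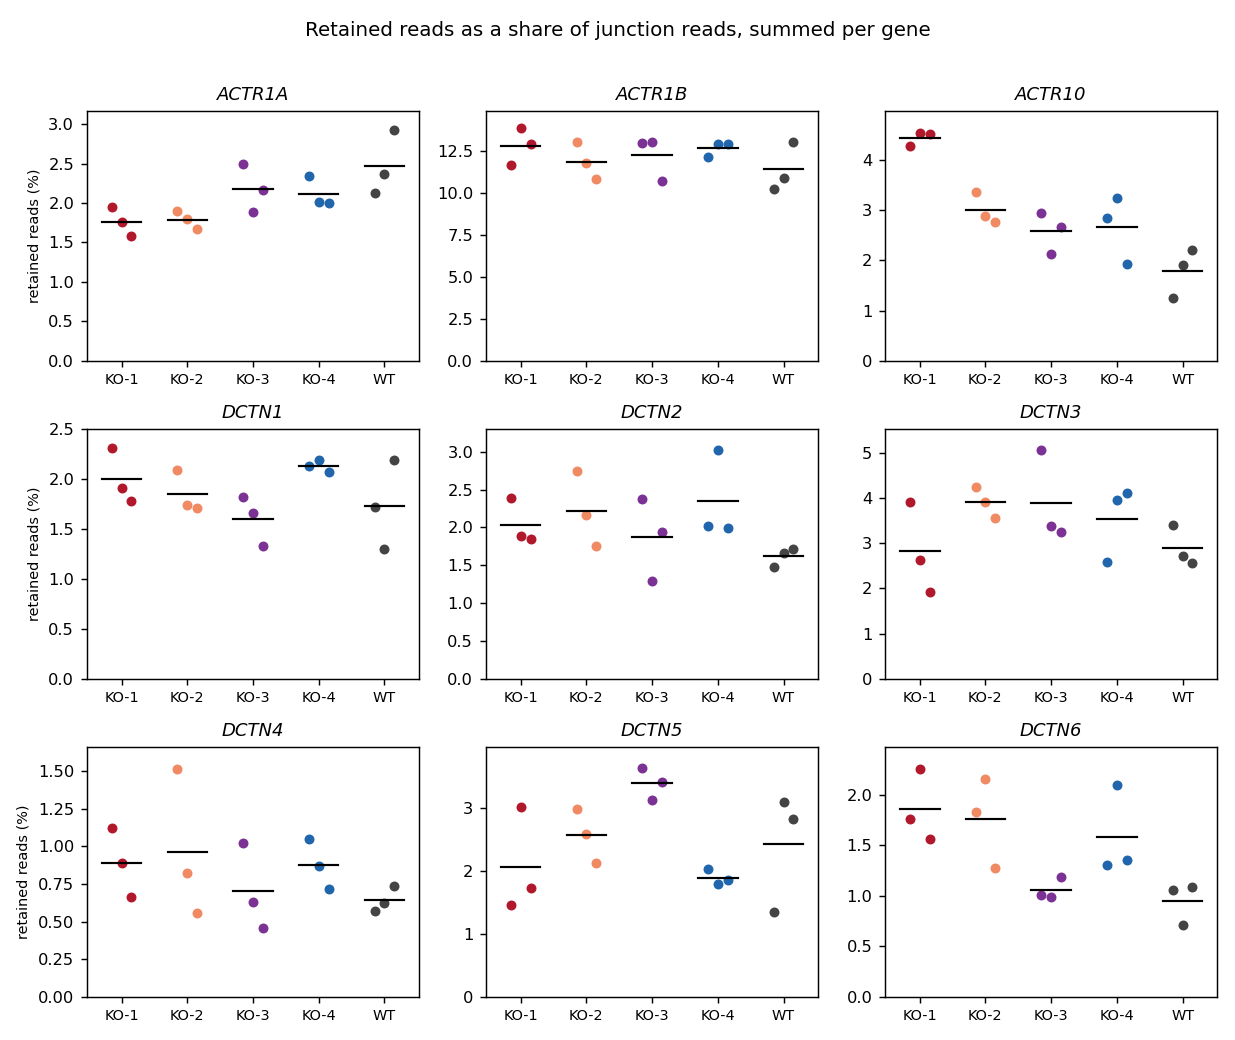
Retained reads as a percent of junction reads (vertical axis, from 0), summed per dynactin subunit gene, with 1 point per library of KO-1 to KO-4 and WT and a line at the mean. For ACTR10 the 3 KO-1 points lie between 4.28 and 4.54%, above the WT points between 1.26 and 2.22%; the ACTR1B points lie between 10.3 and 13.9%.

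Among the other pointed-end genes, DCTN6 rose in KO-1 and DCTN4 and DCTN5 fell in KO-4, and no other comparison of theirs passed. DCTN6, a small subunit at the pointed end, had 2382, 2384 and 2435 scaled spliced reads in KO-1 against 2148, 2144 and 2181 in WT (log2 0.15 ± 0.05, adjusted p = 0.0191), and it was within 3% of the WT mean in KO-2, KO-3 and KO-4 (adjusted p of 0.614, 0.839 and 0.514). DCTN4 had 2729, 2557 and 2697 in KO-4 against 3009, 2855 and 2958 in WT (log2 -0.14 ± 0.05, adjusted p = 0.0334). DCTN5, a small subunit beside DCTN6, had 490, 470 and 539 in KO-4 against 631, 607 and 556 in WT (log2 -0.26 ± 0.10, adjusted p = 0.0303). In these 3 comparisons no library of the clone overlapped WT. None of the 3 calls held in every setting: DCTN6 in KO-1 ended without the KO-1 library listed 3rd (adjusted p = 0.0565) or the WT library listed 1st (0.0513) or 2nd (0.0564), and with all introns of the KO-1 table (0.0768). DCTN4 in KO-4 ended with scaling by total spliced reads (adjusted p = 0.0766) and without the KO-4 library listed 2nd (0.142) or the WT library listed 1st (0.102) or 3rd (0.0694). DCTN5 in KO-4 ended with the same scaling (adjusted p = 0.052) and without the KO-4 library listed 1st (0.079) or 2nd (0.119) or the WT library listed 1st (0.107) or 2nd (0.0782).

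Retention in the pointed-end genes was low. DCTN6 intron 2 had 1.00% ± 0.51 for KO-1, 1.85% ± 0.47 for KO-2, 0.693% ± 0.213 for KO-3, 1.47% ± 0.86 for KO-4 and 0.711% ± 0.196 for WT (SD, n = 3 each), with a log2 odds ratio of 1.38 ± 0.48 for KO-2 (adjusted p = 0.119). DCTN6 intron 4, named after its values were seen, had 2.35% ± 0.58 in KO-1 and 0.609% ± 0.174 in WT. It did not reach the minimum of retained reads, and its adjusted p in KO-1 was 0.0488 without the minimum, 0.036 with a minimum of 50 junction and 5 retained reads, and 0.0245 as the FDR in the authors' deposited table. The share of all introns called higher in KO-1 was 0.351% without the minimum and 0.637% by the FDR in the authors' deposited table. The DCTN4 intron with the most retained reads, intron 6, had 2.3% ± 0.42 for KO-1, 1.08% ± 0.75 for KO-2, 0.753% ± 0.582 for KO-3, 1.64% ± 0.92 for KO-4 and 1.32% ± 0.83 for WT. The DCTN5 intron with the most retained reads, intron 1, had 1.62 to 2.35% in the clones and 2.18% ± 0.66 in WT. DCTN5 intron 5, the loosest match to the U12-type letters, had 1.32% ± 1.2 for KO-1, 3.27% ± 0.79 for KO-2, 2.80% ± 1.34 for KO-3, 1.45% ± 0.97 for KO-4 and 2.20% ± 1.27 for WT, and all clones overlapped WT. No intron of DCTN4 or DCTN5 held enough retained reads to be tested.

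Of the filament genes, ACTR1B rose in 3 clones. It had 1482, 1397 and 1506 scaled spliced reads for KO-1, 1585, 1602 and 1652 for KO-2, 1342, 1204 and 1125 for KO-3, 1556, 1644 and 1541 for KO-4, and 1072, 1163 and 1167 for WT. KO-1, KO-2 and KO-4 lay wholly above WT, at 129, 142 and 139% of its mean, and KO-3 overlapped WT. The log2 changes were 0.37 ± 0.07 for KO-1 (adjusted p = 0.000236), 0.51 ± 0.07 for KO-2 (1.82e-06), 0.11 ± 0.07 for KO-3 (0.231) and 0.48 ± 0.07 for KO-4 (3.11e-06). The clones differed from each other (limma F test, adjusted p = 4.28e-05).

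ACTR1A, the more abundant of the closely related filament pair, rose in KO-4 only among the 4 comparisons. It had 4874, 5314 and 4809 scaled spliced reads in KO-4 against 3920, 4119 and 4118 in WT (log2 0.30 ± 0.05, adjusted p = 6.67e-05), and in KO-1, KO-2 and KO-3 it overlapped WT (adjusted p of 0.78, 0.385 and 0.694). Set per splice junction, ACTR1B stood at 31.9% ± 1.8 of ACTR1A for KO-1, 34.4% ± 0.8 for KO-2, 26.6% ± 3.1 for KO-3, 28.5% ± 0.5 for KO-4 and 25.2% ± 0.5 for WT (SD, n = 3 each).

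ACTR1B intron 5 (chromosome 2, 97658644 to 97658878, minus strand, 235 bases, coding) was the most retained intron of any reference transcript of the 9 genes. Its retention was 26.7% ± 2.0 for KO-1, 27.7% ± 2.7 for KO-2, 29.7% ± 5.1 for KO-3, 28.7% ± 4.1 for KO-4 and 28.2% ± 5.1 for WT (SD, n = 3 each), and the groups overlapped. Its log2 odds ratios lay between -0.14 and 0.09, with SE of 0.24 to 0.27. Intron 7 of the same gene had 12% ± 3.9 for KO-1, 9.26% ± 0.69 for KO-2, 10.9% ± 3.1 for KO-3, 11.9% ± 2.1 for KO-4 and 7.90% ± 1.82 for WT, with adjusted p of 0.481, 0.842, 0.794 and 0.351. In ACTR1A the intron with the most retained reads, intron 7, had 1.25 to 2.09% in the clones and 1.83% ± 0.48 in WT. ACTR1A intron 10 had 1.54% ± 0.38 for KO-1, 0.943% ± 0.360 for KO-2, 1.47% ± 0.27 for KO-3 and 1.23% ± 0.43 for KO-4 against 2.07% ± 0.16 for WT, and no change passed the test (smallest adjusted p 0.218, for KO-2).

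Of the shoulder and arm genes, DCTN2, dynamitin, whose excess takes dynactin apart, rose in KO-2 and KO-4, with 6584, 6626 and 7071 scaled spliced reads for KO-2, 6910, 7325 and 7400 for KO-4 and 5951, 6226 and 6273 for WT. The log2 changes were 0.14 ± 0.05 in KO-2 (adjusted p = 0.0241) and 0.23 ± 0.05 in KO-4 (0.000384). The KO-2 call ended without the KO-2 library listed 3rd (0.132) or the WT library listed 1st (0.0993). DCTN1, the large arm subunit that binds dynein and microtubules, had 7924, 8180 and 7726 for KO-1, 8996, 9236 and 9467 for KO-4 and 8553, 8568 and 8632 for WT, a log2 change of -0.11 ± 0.04 for KO-1 (adjusted p = 0.0487) and 0.10 ± 0.04 for KO-4 (0.0406). Each DCTN1 call ended when any 1 of 5 of its 6 libraries was left out, with adjusted p of 0.0813 to 0.156 in KO-1 (all but the KO-1 library listed 2nd) and 0.0595 to 0.14 in KO-4 (all but the KO-4 library listed 1st), and the KO-1 call also with limma voom (0.0542) and with all introns of the KO-1 table (0.116). DCTN2 also has a line from 57534393 to 57535055 that reaches 60 bases beyond intron 5, with 1229, 2125, 1790 and 2282 retained reads in the clones KO-1 to KO-4 and 1859 in WT against at most 2 spliced reads per group, and it was not read as retention. Of its reference introns, intron 8 held the most retained reads, at 3.67% ± 1.5 for KO-1, 4.24% ± 1.12 for KO-2, 3.58% ± 1.52 for KO-3, 4.46% ± 0.41 for KO-4 and 3.01% ± 0.91 for WT, with no change past the threshold.

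DCTN3, the small shoulder subunit with the intron shown above, had no change past the threshold in any clone. It had 2124, 2190 and 2142 scaled spliced reads for KO-1 and 2091, 1979 and 1707 in WT, with log2 changes of 0.17 ± 0.07 for KO-1, 0.08 ± 0.07 for KO-2, 0.12 ± 0.07 for KO-3 and 0.09 ± 0.07 for KO-4 (adjusted p of 0.0807, 0.361, 0.189 and 0.297). Without the WT library listed 1st, the KO-1 change passed (0.23, adjusted p = 0.028).

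DCTN3 intron 6 was retained at 5.50% ± 1.95 for KO-1, 6.27% ± 0.66 for KO-2, 6.37% ± 1.60 for KO-3, 6.13% ± 2.34 for KO-4 and 4.01% ± 1.25 for WT (SD, n = 3 each). Its libraries ran at 7.29, 5.80 and 3.42% for KO-1, 6.38, 5.56 and 6.87% for KO-2, 8.22, 5.48 and 5.42% for KO-3, 3.72, 8.41 and 6.25% for KO-4, and 5.44, 3.21 and 3.37% for WT. All KO-2 libraries lay above WT, and KO-1, KO-3 and KO-4 overlapped it. The log2 odds ratios were 0.50 ± 0.37, 0.66 ± 0.33, 0.71 ± 0.33 and 0.61 ± 0.33 (SE) in the clones KO-1 to KO-4, with adjusted p of 0.679, 0.392, 0.526 and 0.388.

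Counted over the members, KO-1 had 2 genes with more spliced reads and 2 with fewer, against 13.7% higher and 12.5% lower among all 9471 genes. KO-2 had 2 and 1 (background 21.9% and 21.1%), KO-3 0 and 1 (15% and 15.6%), and KO-4 4 and 3 (24.6% and 24.2%). The median log2 change of the 9 genes was 0.02 for KO-1, 0.03 for KO-2, 0.00 for KO-3 and 0.09 for KO-4, and that of all genes lay within 0.01 of 0 in each. Libraries that did not overlap WT were above it for 3 genes and below it for 2 for KO-1 (18.4% and 18.3% of all genes), 3 and 1 for KO-2 (26.3% and 26.1%), 1 and 1 for KO-3 (20.7% and 20.7%) and 4 and 3 for KO-4 (28.2% and 28.5%). None of the 9 lay above WT in all libraries of all 4 clones, where 2.26% of all genes did. With libraries scaled by total spliced reads the 9 genes had 4 and 0 calls in KO-4, where 26.8% and 21.1% of all genes were called. With the same scaling all genes in KO-3 split into 775 higher and 2237 lower, where the median-ratio scaling gave 1423 and 1481. The median gene of KO-3 moved by -0.07 with scaling by total.

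For retention, 29 of the 106 dynactin introns reached the minimum of 10 retained and 10 spliced reads in at least 1 comparison, with 21, 26, 23 and 28 tested in the clones KO-1 to KO-4, and ACTR10, DCTN4 and DCTN5 had none. Among the introns tested was the DCTN2 line from 57532644 to 57532783. Its 1180 retained reads in WT stood close to the 1231 spliced reads of intron 10, which it contains. Also tested, in KO-4, was the DCTN2 line from 57535846 to 57547027, which spans introns 1 and 2. Both lines were kept in the counts and medians given here. No dynactin intron passed the quasi-binomial test in any clone, in either direction. Among all introns tested, 1.29% were called higher and 0.175% lower for KO-1, 1.3% and 0.304% for KO-2, 0.558% and 0.155% for KO-3, and 1.54% and 0.429% for KO-4. At an unadjusted p of 0.05 the dynactin introns gave 1 higher and 1 lower for KO-1, 2 and 1 for KO-2, 1 and 0 for KO-3, and 4 and 1 for KO-4, and limma on log2 odds also called 0 in every clone. At the same unadjusted p, 8.51% of all introns tested were higher and 2.31% lower for KO-1, 8.23% and 3.62% for KO-2, 4.83% and 3.42% for KO-3, and 11% and 2.81% for KO-4. The median log2 odds ratio of the tested dynactin introns was -0.14 for KO-1, 0.05 for KO-2, 0.01 for KO-3 and 0.13 for KO-4, against 0.13, 0.09, 0.02 and 0.16 for all introns tested. The sign of this median was not stable for KO-1, where it was 0.38 without the minimum (0.19 for all introns), 0.17 with a minimum of 50 junction and 5 retained reads, and 0.12 without the WT library listed 3rd. Without the minimum the medians were 0.31 for KO-2, 0.17 for KO-3 and 0.36 for KO-4 (0.10, 0.05 and 0.18 for all introns), and 64.6, 72.3, 64.0 and 64.7% of the dynactin introns lay above 0 in the clones KO-1 to KO-4.

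**Figure D4:**
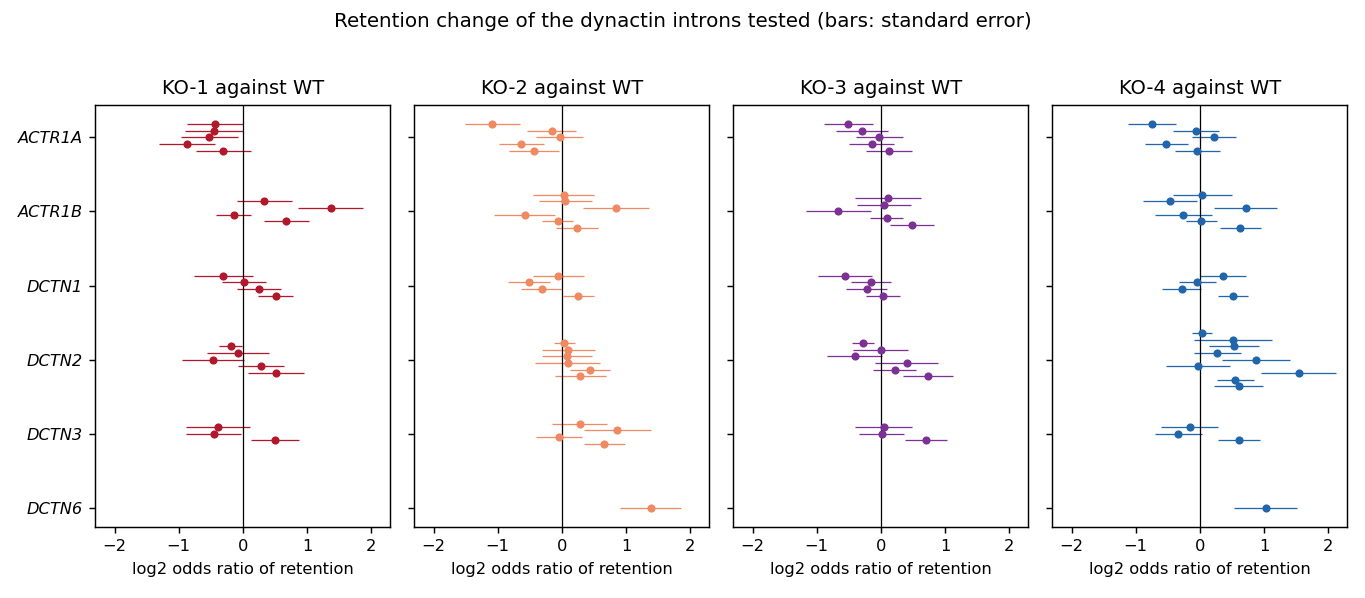
Log2 odds ratio of retention (horizontal axis) with its standard error for each dynactin intron tested, 1 panel per clone against WT, by gene. Points lie on both sides of 0 and run from -0.87 to 1.37 for KO-1, -1.09 to 1.38 for KO-2, -0.66 to 0.73 for KO-3 and -0.74 to 1.54 for KO-4, and none passed the threshold.

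The highest of these, DCTN2 intron 5 in KO-4, had 1.21% ± 0.11 retention against 0.408% ± 0.132 in WT (log2 odds ratio 1.54 ± 0.58, adjusted p = 0.116). ACTR1B intron 2 in KO-1 followed at 7.71% ± 2.35 against 3.10% ± 0.92 in WT (1.37 ± 0.51, adjusted p = 0.206). The DCTN1 intron with the most retained reads, intron 22, had 5.02% ± 0.89 for KO-1, 4.33% ± 0.50 for KO-2, 3.67% ± 1.16 for KO-3, 5.14% ± 0.62 for KO-4 and 3.65% ± 0.57 for WT, with adjusted p of 0.519, 0.748, 0.991 and 0.296. None of 27 dynactin introns tested differed among the 4 clones, where 6.41% of all introns did. An unadjusted p of at most 0.05 was reached by 2 of the 27, against 4388 of all 21223 introns tested. With limma on log2 odds 0 of the 27 were called, against 0.594% of all introns. The median standard error of a tested dynactin intron was 0.43, 0.39, 0.37 and 0.37 in the clones KO-1 to KO-4 on the log2 odds scale. A change of that size could not be told from 0 at this depth. Nor did larger estimates pass after adjustment, such as the 1.54 ± 0.58 and 1.37 ± 0.51 given above.

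In WT, 68 of the 100 introns of the reference transcripts were retained at under 1%, 28 at 1 to 5% and 4 at 5% or more, with a median of 0.535%. The medians were 0.696% for KO-1, 0.739% for KO-2, 0.600% for KO-3 and 0.681% for KO-4, over 96, 97, 96 and 96 introns. Per splice junction, which removes the number of introns from the level, WT ran from DCTN2 (463 ± 12.8 scaled spliced reads per junction, SD, n = 3) and ACTR1A (450.3 ± 12.7) through DCTN6 (359.6 ± 3.4), DCTN1 (358 ± 1.7), DCTN3 (321 ± 33.0) and DCTN4 (267 ± 7.1) to ACTR10 (188 ± 6.9), DCTN5 (149.5 ± 9.6) and ACTR1B (113 ± 5.4). The libraries of DCTN2 and ACTR1A overlapped in this order, as did those of DCTN6 and DCTN1, and the other neighbours did not. ACTR10 was the 7th of the 9 in KO-2, KO-3, KO-4 and WT and the 9th in KO-1, where it averaged 141 ± 5.4, beside ACTR1B at 146 ± 5.7 and DCTN5 at 149 ± 14.8, whose libraries overlapped its own.

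**Figure D5:**
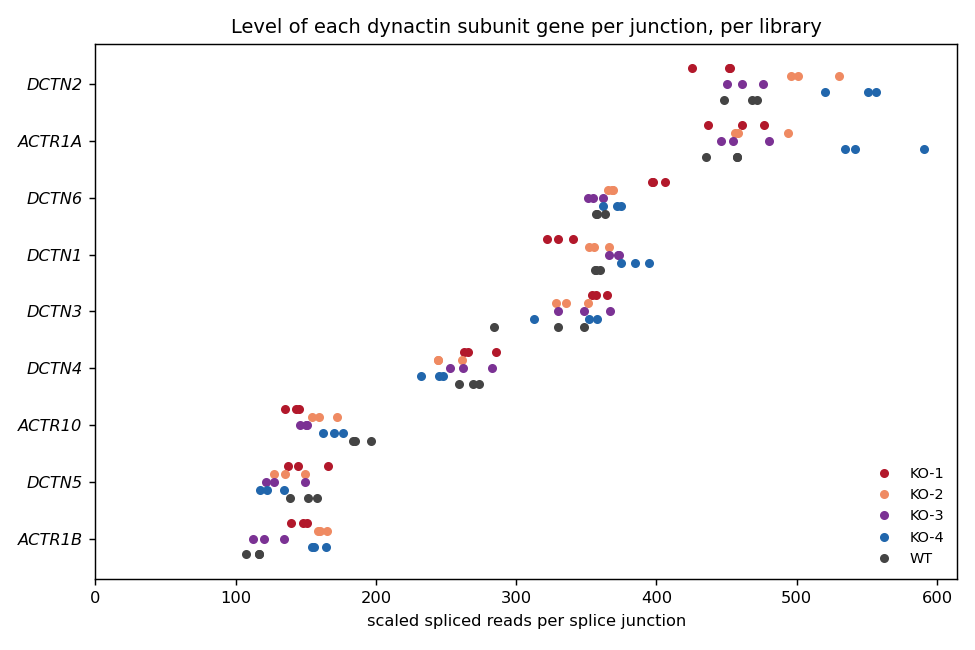
Scaled spliced reads per splice junction (horizontal axis, from 0) of each dynactin subunit gene, with 1 point per library and the groups KO-1 to KO-4 and WT from top to bottom within each gene. Genes run from DCTN2 at the top to ACTR1B at the bottom by WT mean, and the ACTR10 points of every clone lie to the left of WT.

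Among the genes whose summed spliced reads were most like those of ACTR10 over the 15 libraries were VASP (Pearson r of log2 values 0.93), DNAAF3 (0.90), STX6 (0.89) and TRRAP (0.86). VASP, an actin regulator, had log2 changes of -0.42, -0.27, -0.33 and -0.14 in the clones KO-1 to KO-4. For ACTR10 intron 5, which stands in for the outer line with more retained reads because that line was listed for 2 clones, the log2 odds of retention were most like those of introns in ZCCHC8 (r = 0.92), TMEM44 (0.91), TOP2A (0.87), IPO9 (0.87) and ALG12 (0.86), out of 18064 introns. These values share libraries and depth and describe likeness only.

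Of 35 other genes of the dynein pathway, 33 had introns listed and 32 entered the test of spliced reads. The 3 capping protein genes, which close the barbed end of the dynactin filament, gave 1 call, CAPZA1 in KO-1 (log2 0.18 ± 0.05, adjusted p = 0.00541). Of 9 dynein subunit genes tested, 4 rose and 1 fell for KO-1, 2 and 2 for KO-2, 1 and 1 for KO-3, and 6 and 1 for KO-4. The shares of all genes called higher and lower were those given above, 13.7 and 12.5% for KO-1, 21.9 and 21.1% for KO-2, 15 and 15.6% for KO-3, and 24.6 and 24.2% for KO-4. With scaling by total spliced reads the 32 genes had 0 higher and 12 lower calls in KO-3, where the median-ratio scaling gave 2 and 6. Among all genes, scaling by total called 8.18% higher and 23.6% lower in KO-3. DYNLRB1, a roadblock light chain, rose in all 4, by 0.33, 0.39, 0.18 and 0.60 on the log2 scale in the clones KO-1 to KO-4 (adjusted p of 0.000699, 4.27e-05, 0.0377 and 1.26e-07). The KO-3 call ended with scaling by total spliced reads (adjusted p = 0.212), with all introns of the KO-3 table (0.0712), and without the KO-3 library listed 2nd (0.0558) or 3rd (0.172) or the WT library listed 2nd (0.093) or 3rd (0.174). DYNC1H1, the motor heavy chain, had 0.13, 0.07, -0.12 and 0.15 in the clones KO-1 to KO-4 (adjusted p of 0.0252, 0.151, 0.0296 and 0.00348). Its KO-1 and KO-3 calls each ended with all introns of the clone's table and without any 1 of 4 of the 6 libraries, with adjusted p of 0.0534 to 0.0861 in KO-1 and 0.0557 to 0.12 in KO-3.

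Among 16 adaptor and partner genes tested, 2 rose and 2 fell for KO-1, 4 and 4 for KO-2, 1 and 4 for KO-3, and 4 and 2 for KO-4. HOOK1, an adaptor that activates dynein, fell by 0.38, 0.60 and 0.80 on the log2 scale in KO-1, KO-2 and KO-4 (adjusted p of 0.00127, 3.78e-06 and 4.62e-08) and stood at 0.05 in KO-3 (0.706). SPDL1, the kinetochore adaptor Spindly, had -0.19, -0.58 and -0.23 in KO-1, KO-2 and KO-4 (adjusted p of 0.0411, 4.29e-07 and 0.00708) and 0.12 in KO-3 (0.174). Its KO-1 call ended with all introns of the KO-1 table (adjusted p = 0.076) and without any 1 of 5 of the 6 libraries (0.0672 to 0.196). Other genes of this list went the other way. RAB11FIP3 rose by 0.38, 0.51 and 0.69 in KO-1, KO-2 and KO-4 (adjusted p of 0.0146, 0.000779 and 2.78e-05) and stood at -0.11 in KO-3 (0.483). NINL had 0.41, 0.54, -0.16 and 1.13 in the clones KO-1 to KO-4 (adjusted p of 0.0718, 0.0106, 0.491 and 6.85e-06). How these RAB11FIP3 and NINL calls depended on the settings is not reported here. Of the 4 dynein regulators, NDE1 alone was called, higher in KO-1 (0.32) and lower in KO-3 (-0.26). The KO-1 call ended without the KO-1 library listed 3rd (adjusted p = 0.0962) or the WT library listed 1st (0.0923), and the KO-3 call without the KO-3 library listed 2nd or 3rd or the WT library listed 2nd or 3rd (0.0603 to 0.178).

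Their introns gave 2 calls higher for KO-1 of 53 tested, 0 for KO-2 of 69, 0 for KO-3 of 59 and 1 higher for KO-4 of 71, with 0 lower in each. The share called higher was thus 3.77% for KO-1 and 1.41% for KO-4. Among all introns tested it was 1.29% for KO-1, 1.3% for KO-2, 0.558% for KO-3 and 1.54% for KO-4. Called lower among all introns were 0.175, 0.304, 0.155 and 0.429% in the clones KO-1 to KO-4. An intron of DYNC1LI2 (chromosome 16, 66732475 to 66734217), a dynein light intermediate chain, had 28.6% ± 8.4 retention in KO-1 against 12.1% ± 4.7 in WT (SD, n = 3 each, log2 odds ratio 1.56 ± 0.28, adjusted p = 8.84e-05). An intron of NUDC (chromosome 1, 26943066 to 26945389), a dynein regulator, had 1.79% ± 0.47 in KO-1 against 0.790% ± 0.378 in WT (1.29 ± 0.34, adjusted p = 0.029). An intron of MAPK8IP3 (chromosome 16, 1745104 to 1747028), a motor adaptor, had 25.3% ± 10.8 in KO-4 against 7.45% ± 4.57 in WT (2.08 ± 0.55, adjusted p = 0.0101). With limma on log2 odds none of these 3 passed. No gene of this list had an intron past the threshold in more than 1 clone, and these 3 are named as a count of 5 or fewer, after their values were seen.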

How the data were processed

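Polyadenylated RNA of HCT116 cells was sequenced from directional libraries, per the labels' protocols. The tools were cutadapt 2.0 and STAR 2.7.1a with the build hg38, per the submitters' processing notes. For the counting of junction reads, tool, strand use and filter were not given in the sources used here. What the authors deposited is 1 table per clone against WT, with raw counts of retained and spliced junction reads as lists of 3 libraries, the effective lengths of both forms, p-values with FDR, and an inclusion-level difference, a score with both signs. Every listed intron had at least 20 junction reads in every library. WT counts were identical in all 258408 rows compared between tables. Within a list nothing ties a value to a replicate number, and a library is called by its place in the list.

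Retention was recomputed from counts and lengths. The test per clone took introns with means of 10 or more retained and 10 or more spliced reads and was made with a quasi-binomial model whose dispersion was moderated with limma 3.58.1 (R 4.3.3) and floored at 1, with Benjamini-Hochberg adjustment over all introns tested and a threshold of 0.05. Spliced reads were summed per gene over introns listed in all 4 tables, scaled by median ratio, and tested on log2(value + 0.5) with limma and a trend over all 15 libraries (means of 50 or more). The deposited counts stand in lists within cells and were not classed as plain count columns. The planned count tests were therefore not run on these sums, and the planned limma fit took their place. Once split, the lists held whole counts per library, so their form did not itself prevent such a test. All tests were two-sided. The retention test per intron and the limma test of summed spliced reads, each for a clone against WT, were tried on simulated data. The other tests, among them that of summed retention and those among the clones, were not. Replicates come from independent experiments per the labels. Errors and p-values measure the spread between these libraries, and reads carry no molecular identifiers. Introns are numbered in a protein-coding GENCODE v29 transcript, and sequence letters are from GENCODE transcripts.

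The members and lists were chosen with earlier results of these data known. All 9 genes were described. Named introns were every ACTR10 intron, each other gene's intron with the most retained reads, and, after their values were seen, DCTN6 intron 4, DCTN2 intron 5, ACTR1B introns 2 and 7, ACTR1A intron 10 and DCTN3 intron 6. Of the other pathway genes the rule named those with introns called in at least 2 clones, which none had, so the genes named there were chosen after their values were seen. Of the genes most like ACTR10, 1 is not reported here.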

Additional observations from a re-analysis of the deposited data

Results flagged for a closer look

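The scaled spliced reads of 7 of the 9 dynactin genes differed among the 4 clones (limma F test on the clone libraries, Benjamini-Hochberg adjusted over 9471 genes), which is how 75.6% of all genes behaved. The adjusted p was 4.28e-05 for ACTR1B, 6.22e-05 for DCTN2, 0.000185 for ACTR1A, 0.000826 for DCTN1, 0.00267 for ACTR10, 0.0228 for DCTN6 and 0.0365 for DCTN4. ACTR10 lay at 1270, 1458, 1341 and 1526 in the clones KO-1 to KO-4, against 1696 in WT. ACTR1B lay at 1462, 1613, 1224 and 1580, against 1134 in WT, with KO-3 nearest to WT. ACTR1A was highest in KO-4 (4999, against 4052 in WT), and DCTN1 was lowest in KO-1 (7943) and highest in KO-4 (9233), against 8585 in WT. DCTN3 (adjusted p = 0.514) and DCTN5 (0.127) did not pass.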

How the results depend on the processing

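No paired analysis was possible because the deposited lists tie no value to a replicate number. The planned count test of summed spliced reads and its size-factor alternative were not run, for the reason given with the processing. Scaling by total spliced reads, limma voom and all settings of the summed retention were chosen after seeing the data. No called result changed direction in any setting run. The median log2 odds ratio of the dynactin introns, which has no test, changed sign: it was -0.14 in KO-1 and 0.38 without the minimum, and ran from -0.16 to 0.12 for KO-1, -0.06 to 0.15 for KO-2, -0.13 to 0.05 for KO-3 and 0.07 to 0.33 for KO-4 when a library was left out. Centred on the median intron it was -0.05 for KO-2, -0.01 for KO-3 and -0.04 for KO-4, and with limma it was -0.03 for KO-3.

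The dynactin introns, 0 called in KO-1, gave 1 (DCTN6 intron 4) without the minimum, 1 with a minimum of 50 junction and 5 retained reads, and 1 by the authors' deposited FDR, and 0 to 1 when a library was left out. Introns of the other dynein pathway genes (2, 0, 0 and 1 in the clones KO-1 to KO-4) gave, with limma on log2 odds, 0 for KO-1 and 0 for KO-4, 1 in KO-1 and 1 in KO-2 when centred on the median intron, 1 in KO-2 without the minimum, 3 in KO-1 (2 higher and 1 lower) without it and with a minimum of 50 junction and 5 retained reads, and 5, 4, 2 and 2 by the authors' deposited FDR, with ranges of 1 to 3, 0 to 2, 0 to 1 and 0 to 4 when a library was left out. All introns called (276, 379, 156 and 478) numbered 42, 9, 13 and 8 with limma and 738, 1171, 534 and 1426 by the authors' deposited FDR, and 112 to 569, 207 to 693, 75 to 258 and 195 to 1168 when a library was left out, each highest without the WT library listed 3rd. Among the clones, the dynactin introns gave 1 without the minimum and otherwise 0, and all introns gave 126 with limma and 565 to 840 when a library was left out, against 1361.

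Dynactin genes with changed spliced reads numbered 2 in KO-1 with all introns of its table and 3 with limma voom, against 4, and 4 in KO-4 with scaling by total, against 7, and 2 to 4 and 4 to 5 when a library was left out. Among all genes in KO-1, 11.8% were called higher and 10.7% lower with all introns of its table, and 12.5% and 11.2% with limma voom. For KO-4 with scaling by total the shares were 26.8% and 21.1%. When a library was left out, 10.1 to 12.5% of all genes were higher and 9.53 to 11.8% lower in KO-1. In KO-4 these ranges were 20.9 to 23.8% and 20.3 to 23%. The ACTR10 change in KO-4 was -0.12 with scaling by total and -0.18 to -0.12 when a library was left out. For summed retention, 0 dynactin genes were called in KO-1 with limma and 0 to 2 when a library was left out, and 0 to 1 in KO-4. Called higher among all genes in KO-1 were 0.251% with limma and 0.363 to 6.97% when a library was left out. In KO-4 the latter range was 0.254 to 9.57%. ACTR10 in KO-1 stood at 1.38 with limma and at 1.14 to 1.5 when a library was left out. The ACTR1B calls in KO-1, KO-2 and KO-4, the ACTR1A and DCTN2 calls in KO-4 and the ACTR10 calls in KO-1, KO-2 and KO-3 held in every setting run. Depth limits the retention of ACTR10, DCTN4 and DCTN5, whose introns of the reference transcripts held too few retained reads for the test.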

Other observations

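DCTN2 is listed with a pair of introns that share their lower coordinate on chromosome 12 and are 89 and 140 bases long, 51 bases apart at the other end. Of the spliced reads of the pair, the longer form took 29.6% ± 2.5 (KO-1), 26.4% ± 4.4 (KO-2), 30.4% ± 3.5 (KO-3) and 28.5% ± 1.7 (KO-4), against 26.9% ± 0.7 in WT (SD, n = 3 each). The lowest KO-1 library stood level with the highest WT library at 27.4%, and the other clones overlapped WT. The difference was not tested. DCTN5 intron 4 was the only dynactin intron of 93 that differed among the clones when no minimum of reads was set (adjusted p = 0.0283), which is 1.08% of them against 2.05% of all introns, with retention of 0.610% (KO-1), 0.153% (KO-2), 2.02% (KO-3) and 0.195% (KO-4), against 0.544% in WT.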
